A study of Mus musculus with 12 samples.

Results

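The 10 membrane carriers examined here move digested food across the gut epithelium, and their mRNA was measured in intestinal epithelial cells of Chd8L+/- and wild-type (WT) mice. They are the genes Slc5a1, Slc2a2, Slc2a5, Slc15a1, Slc6a19, Slc7a9, Slc3a1, Slc7a7, Slc1a1 and Slc6a20a. They were chosen by name for what they carry, and all 10 are among the 14244 rows of the expression table. Chd8L+/- mice are heterozygous for a deletion within Chd8, which encodes a chromatin remodeler of the chromodomain helicase family, and the controls were their WT littermates. All mice were C57BL/6 males of 8 weeks, and each library was poly(A) RNA of epithelial cells shaken from intestinal sections, 5 libraries from WT and 7 from Chd8L+/- mice. The labels name the tissue as gut and do not say which segments were taken. The allele is not restricted to the epithelium.

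Enterocytes, the absorptive cells of the villus, take up sugars, peptides and amino acids through carriers of the solute carrier superfamily. Uptake at the lumen is mostly secondary active transport, driven by the sodium gradient that the basolateral sodium pump maintains or, for peptides, by protons. Some amino acid carriers reach the membrane only as a dimer with a heavy subunit. Most of these genes are transcribed as enterocytes leave the crypt and mature, and their levels differ along the length of the intestine.

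The upstream sequences of 3 of the genes are shown because they represent the sugar carriers with the largest differences between genotypes, Slc5a1 and Slc2a5, and the carrier gene with the difference nearest 0, Slc3a1. Each line is the 250 bases before the RefSeq transcript start (GRCm38.p6, plus strand, 5′ to 3′), with matches on either strand to 4 short motifs in capitals. The windows are chr5:33103969-33104218 for Slc5a1, chr4:150119094-150119343 for Slc2a5 and chr17:85028097-85028346 for Slc3a1.
Slc5a1: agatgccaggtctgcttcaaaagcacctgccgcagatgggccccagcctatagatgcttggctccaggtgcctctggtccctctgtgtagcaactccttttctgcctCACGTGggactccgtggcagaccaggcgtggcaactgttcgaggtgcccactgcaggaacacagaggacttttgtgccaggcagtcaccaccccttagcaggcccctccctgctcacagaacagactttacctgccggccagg
Slc2a5: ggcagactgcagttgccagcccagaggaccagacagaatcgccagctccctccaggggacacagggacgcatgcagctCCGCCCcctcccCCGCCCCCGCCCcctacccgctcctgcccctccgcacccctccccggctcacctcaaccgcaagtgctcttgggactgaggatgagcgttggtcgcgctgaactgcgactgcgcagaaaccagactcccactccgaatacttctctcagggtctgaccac
Slc3a1: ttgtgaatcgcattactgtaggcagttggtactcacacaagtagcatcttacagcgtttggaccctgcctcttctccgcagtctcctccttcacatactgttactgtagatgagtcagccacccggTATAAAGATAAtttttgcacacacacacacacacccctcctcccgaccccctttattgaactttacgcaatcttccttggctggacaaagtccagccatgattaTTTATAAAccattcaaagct
The capitals mark the E-box CACGTG in Slc5a1, which reads the same on both strands, 3 matches to the GC box GGGCGG, read on the other strand, in Slc2a5, and 3 matches to the TATA box TATAAA, 2 of them overlapping and the other abutting a GATA motif GATAA, in Slc3a1. The E-box stood in 6.02% of 32851 RefSeq promoter windows of this length, the GC box in 32.7%, the TATA box in 12.4% and the GATA motif in 22.6%. All 10 genes had at least 1 window in the RefSeq table and 15 windows in all. None of the 4 motifs was shared by the windows of Slc5a1 and Slc2a5. A match is a description of the letters and not of binding.

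The values are normalized counts, which are reads per gene over a size factor that evens out library depth. The 12 libraries held between 15691662 and 20761315 reads on genes. WT replicate 2 stood apart from the other 4 WT libraries. On the first principal component (39.7% of the variance) it lay at 41.0, inside the range of the Chd8L+/- libraries (0.26 to 42.7) and far from the other WT libraries (-67.5 to -26.2). Its summed count of the 16 enterocyte genes was 389647, against 740019 to 830485 in the other WT libraries, and its summed count of 10 crypt and cycling-cell genes was 21523 against 5913 to 12352. Results for the carriers are therefore given with and without it. It was singled out for lying among the Chd8L+/- libraries, so leaving it out favours a difference between genotypes by construction. Values without it show how much rests on this library and are not a separate test of the difference. Whole-gene counts of Chd8 itself were higher in the libraries labelled Chd8L+/-. They were 1002, 1050.2, 934, 955 and 823 in WT replicates 1 to 5, and lay between 1084 and 1483 in the libraries labelled Chd8L+/-, with no overlap (log2 fold change 0.44, SE 0.10, limma adjusted p = 0.121). The table holds no counts per exon, so the deleted exons could not be read, and a whole-gene count neither checks nor contradicts the label. Every direction below is for libraries as labelled.

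Slc5a1 was by far the most abundant of the carriers. It encodes SGLT1, the sodium-coupled glucose and galactose carrier of the brush border. Counted per kilobase of exon, its median in WT was 23638 normalized counts. In every WT library it was between 5.38 and 8.35 times the level of Slc15a1, next in order. The order by WT median per kilobase then ran Slc15a1, Slc6a19, Slc7a9, Slc2a5, Slc3a1, Slc7a7, Slc2a2, Slc6a20a and Slc1a1, the last at 111.8. Neighbours in this order were not always distinct. Slc15a1 and Slc6a19, Slc7a9 and Slc2a5, and Slc3a1 and Slc7a7 each changed places between WT libraries. In the libraries labelled Chd8L+/-, Slc2a5 exceeded Slc3a1 per kilobase in 1 of 7 libraries, against 5 of 5 in WT. The 2 were close in WT, with a ratio from 1.004 through a median of 1.09 to 1.49, and this contrast was not tested. Of all reads on genes, the 10 carriers took 0.801% ± 0.197 in the 5 WT libraries and 0.561% ± 0.187 in the 7 labelled Chd8L+/- (means and SDs). Slc5a1 alone made up 58.7% ± 4.13 of the carriers' reads in WT and 48.9% ± 3.75 in the libraries labelled Chd8L+/-.

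Across all 12 libraries no carrier passed the threshold of the test between genotypes (limma on log2(normalized count + 1), adjusted p of 0.05 or less over 12808 genes). With this test 0.0234% of all genes passed, 3 genes in all. The 3 sugar carriers were lower in the libraries labelled Chd8L+/- with unadjusted p at or under 0.05, which 11.8% of all genes tested also were. The peptide carrier and the 6 amino acid carriers were not past that mark in either direction. Of the 10 genes, 8 had a log2 fold change below 0, a sign shared by 48.6% of all genes, and their median was -0.28 against 0.01 over all genes. The groups overlapped for all 10 carriers, and did not for 0.515% of all genes. These counts turn on WT replicate 2, whose omission favours a difference by construction. Without that library Slc5a1 and Slc2a5 passed the adjusted threshold as lower, when 13.6% of all genes also did. DESeq2 on the recovered reads of all 12 libraries also called those 2 genes lower, when it called 4.58% of genes lower, whereas edgeR's quasi-likelihood test called no carrier and left Slc5a1 and Slc2a5 at unadjusted p of 0.00444 and 0.00342.

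**Figure D1:**
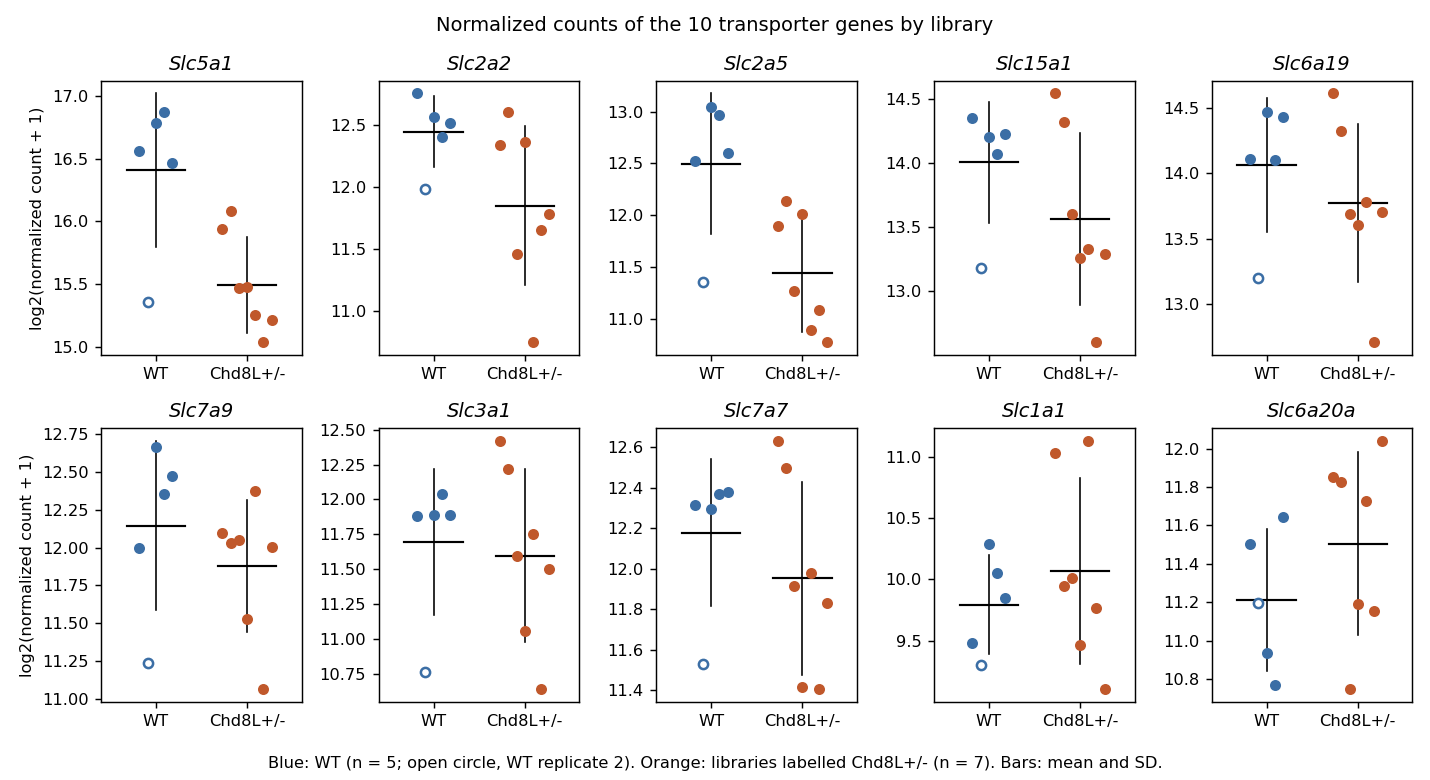
Log2(normalized count + 1) of each of the 10 carrier genes in the 5 WT libraries (blue, with WT replicate 2 open) and the 7 libraries labelled Chd8L+/- (orange); bars are the mean and SD, and each panel has its own scale. Slc5a1 and Slc2a5 are lower in all 7 libraries labelled Chd8L+/- than in the 4 filled WT points, while WT replicate 2 lies among the Chd8L+/- values.

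Slc5a1 was the sugar carrier with the most reads behind it. WT replicates 1 to 5 had 97012, 41920, 113031, 120257 and 90393 normalized counts. The libraries labelled Chd8L+/- ranged from 33617 through a median of 45240.4 to 69379.7. All 7 lay below the WT median, and the groups overlapped only through WT replicate 2. The log2 fold change was -0.91 (SE 0.32, 95% confidence interval -1.60 to -0.23, limma adjusted p = 0.129), and it was -1.18 (SE 0.26, adjusted p = 0.00745) without WT replicate 2. DESeq2 gave -0.96 with an adjusted p of 0.0116 over all 12 libraries.

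Slc2a5 encodes GLUT5, the fructose carrier of the brush border, whose gene is known to be induced by dietary fructose. WT replicates 1 to 5 had 5877, 2614, 8471, 7988 and 6199 normalized counts. The libraries labelled Chd8L+/- ranged from 1752 through a median of 2461 to 4517. All 7 again lay below the WT median, 4 of them also below WT replicate 2. The log2 fold change was -1.06 (SE 0.31, interval -1.73 to -0.38, limma adjusted p = 0.121), and -1.34 (SE 0.27, adjusted p = 0.00508) without WT replicate 2. This was the lowest fold change among the 10 carriers in both fits.

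Slc2a2 encodes GLUT2, the facilitative carrier by which glucose, galactose and fructose leave the enterocyte at its basolateral side. Its WT values were 6926, 4063, 6082, 5428 and 5883 normalized counts, and the libraries labelled Chd8L+/- ranged from 1718 through a median of 3519.8 to 6247. Here the groups overlapped beyond WT replicate 2, since the highest library labelled Chd8L+/- exceeded 4 of the 5 WT libraries, while 4 of the 7 lay below all of WT. The log2 fold change was -0.60 (SE 0.28, interval -1.19 to -0.005, limma adjusted p = 0.203), and -0.71 (adjusted p = 0.0817) without WT replicate 2.

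Slc15a1 encodes PEPT1, which takes up di- and tripeptides together with protons. Its WT values were 20892, 9267, 18805, 17139 and 19124 normalized counts. The libraries labelled Chd8L+/- spread widely, from 6202 through a median of 10292 to 23832, so that the highest and the lowest of the 12 libraries were both in that group. The log2 fold change was -0.44 (SE 0.32, interval -1.12 to 0.24, limma adjusted p = 0.396). Without WT replicate 2 it was -0.65, with an adjusted p of 0.131.

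The amino acid carriers of the brush border gave no call in any direction. Slc6a19 encodes B0AT1, the sodium-coupled carrier of neutral amino acids. Its values were 17718, 9411, 22741, 17594 and 22129 normalized counts in WT and ran from 6695 through 13354 to 25027 in the libraries labelled Chd8L+/-, with a log2 fold change of -0.29 (SE 0.31, interval -0.95 to 0.37, limma adjusted p = 0.578). Slc7a9 and Slc3a1 encode the light and heavy subunits, b0,+AT and rBAT, of the carrier of cystine and cationic amino acids. Slc7a9 had 4089.6, 2418, 6474, 5242 and 5671 normalized counts in WT and 2141 to 5306 in the libraries labelled Chd8L+/-, and Slc3a1 had 3780.3, 1738, 3793, 4218 and 3786 in WT and 1593 to 5489. Their log2 fold changes were -0.27 (SE 0.26, interval -0.82 to 0.28) and -0.10 (SE 0.30, interval -0.74 to 0.55), with limma adjusted p of 0.536 and 0.868. Both subunits overlapped widely between genotypes. Without WT replicate 2 the fold changes were -0.51 for Slc6a19, -0.49 for Slc7a9 and -0.33 for Slc3a1, with limma adjusted p of 0.207, 0.109 and 0.399. The unadjusted interval of Slc7a9 then lay below 0 (-0.97 to -0.02). In that fit 5157 of 12807 genes had an unadjusted interval clear of 0, in either direction, so this does not set Slc7a9 apart.

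The 2 remaining carriers of the brush border had fold changes above 0. Slc1a1 encodes EAAT3, the carrier of glutamate and aspartate, and Slc6a20a encodes SIT1, a carrier of proline and other imino acids. Slc1a1 had 715, 632, 1248, 1059 and 923 normalized counts in WT and ran from 550.2 through 983.7 to 2241 in the libraries labelled Chd8L+/-. Its log2 fold change was 0.27 (SE 0.33, interval -0.43 to 0.97, limma adjusted p = 0.628), and 0.15 without WT replicate 2 (adjusted p = 0.781). For Slc6a20a the values were 2906, 2346, 1959, 1745 and 3204 in WT and 1718 to 4214 in the libraries labelled Chd8L+/-, 4 of which lay above all of WT. Its log2 fold change was 0.29 (SE 0.23, interval -0.20 to 0.79, limma adjusted p = 0.438). It was the carrier whose value moved least when WT replicate 2 was left out, at 0.29 again. Slc7a7, which encodes y+LAT1, exports cationic amino acids at the basolateral side. It had 5098, 2961, 5024, 5285 and 5327 normalized counts in WT and 2712 to 6347 in the libraries labelled Chd8L+/-, and its log2 fold change was -0.22 (SE 0.23, interval -0.72 to 0.27, limma adjusted p = 0.566). Without WT replicate 2 it was -0.39 (adjusted p = 0.208).

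**Figure D2:**
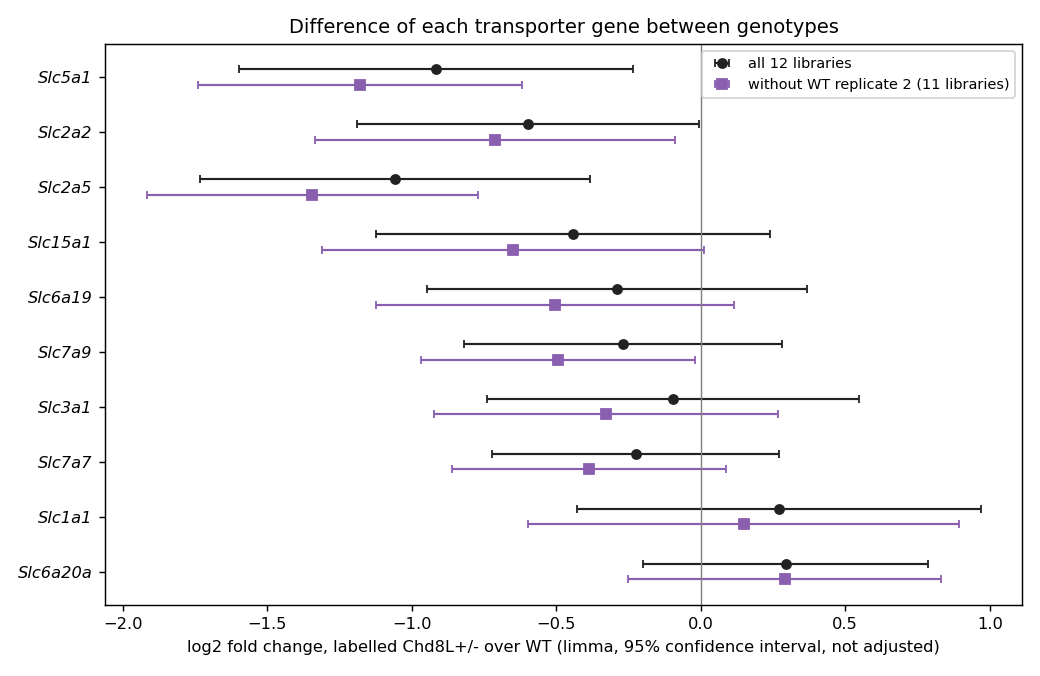
Log2 fold change of each carrier gene, libraries labelled Chd8L+/- over WT, with the unadjusted 95% confidence interval from limma, over all 12 libraries (circles) and without WT replicate 2 (squares). Slc5a1 and Slc2a5 lie farthest below 0 in both fits, and the intervals of Slc15a1, Slc6a19, Slc3a1, Slc7a7, Slc1a1 and Slc6a20a cross 0 in both.

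Some of these counts may hold reads of neighbours, because the strand setting of the counting is not given in the sources used here. In the GENCODE annotation of GRCm38, Slc3a1 (chr17:85028376-85064236) shares exon sequence with Prepl on the other strand, Slc7a7 (chr14:54369442-54417780) with Oxa1l, Slc6a20a (chr9:123634770-123678885) with Ccr9, and Slc1a1 (chr19:28835049-28913960) with 4430402I18Rik. Prepl had between 521.7 and 975 normalized counts in the 12 libraries, Oxa1l between 683 and 1229, Ccr9 between 41.7 and 136.4, and 4430402I18Rik between 20.7 and 56.4. The exons of Slc5a1 (chr5:33104219-33162870), Slc2a5 (chr4:150119283-150144169), Slc2a2 (chr3:28697903-28731359), Slc15a1 (chr14:121459621-121505252), Slc6a19 (chr13:73679745-73704865) and Slc7a9 (chr7:35448796-35466036) share none with another annotated gene. Slc6a20a also has a close paralog, Slc6a20b, and reads could have been split between them, which was not tested. Slc7a7 lies 2.11 Mb from Chd8 on chromosome 14.

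The carriers were next set against the enterocytes they come from. In bulk RNA a lower level can mean fewer cells of a type or less RNA per cell, and these cannot be told apart. The mean log2 level of 16 enterocyte genes averaged 14.9 ± 0.43 over the WT libraries (SD, n = 5) and 14.7 ± 0.37 over those labelled Chd8L+/- (SD, n = 7), a difference with an exact permutation p of 0.268, two-sided. Its direction was that of 8 of the 10 carriers, and 2 went the other way. Of the 16 genes, 15 had a log2 fold change below 0, with a median of -0.27, and none of the markers was at 0 in any library. Each carrier's log2 level minus this mean was therefore compared between genotypes, 10 comparisons in all, without adjustment, in exact permutation tests over 792 splits that cannot give a p below 0.00126.

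Relative to the enterocyte genes, Slc5a1 was lower in every library labelled Chd8L+/- than in every WT library. Its relative log2 level was 1.43, 1.18, 1.59, 1.75 and 1.43 in WT replicates 1 to 5. It ranged from 0.36 through a median of 0.92 to 1.07 in the libraries labelled Chd8L+/-. WT replicate 2, low in absolute level, was here above the highest of them. The mean difference was -0.64 (exact permutation p = 0.00126, two-sided, which is the lowest p this design can give), and -0.71 (exact permutation p = 0.00303, again the smallest possible) without WT replicate 2. Among all 12808 genes put on this scale, 0.242% did not overlap between the groups, and 0.148% did not overlap and were lower in the libraries labelled Chd8L+/-. Without the subtraction, 0.515% of all genes did not overlap. Subtracting the list mean takes out spread shared with the enterocyte genes and can add spread to genes that do not follow them. The SD of Slc5a1 in WT was 0.21 on this scale and 0.61 before. All genes are therefore an unlike background, and the share among enterocyte genes alone was not computed. Against Vil1 and 6 genes of general epithelial identity instead, the difference was -0.71 with an exact permutation p of 0.00884, above the lowest possible. The full separation of the groups is given here only for the enterocyte genes as reference.

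Slc2a5 showed the same sign with overlap. Its relative log2 level was -2.61, -2.82, -2.15, -2.16 and -2.44 in WT and ran from -4.08 through -3.18 to -2.50 in the libraries labelled Chd8L+/-, 6 of which lay below all of WT. The mean difference was -0.78 (exact permutation p = 0.0177), and an exact p of 0.05 or less on the lower side was met by 2.26% of all genes and by 2 of the 10 carriers. That share has the same limit as a background for genes that follow the enterocyte genes. Slc2a2, at -0.32 (exact permutation p = 0.285), and Slc15a1, at -0.16 (exact permutation p = 0.364), did not pass on this scale. Slc6a19 differed by -0.01, Slc7a9 by 0.01 and Slc7a7 by 0.05 on this scale, with exact permutation p of 0.931, 0.961 and 0.66. Slc3a1 differed by 0.18 (exact permutation p = 0.256), Slc1a1 by 0.55 (exact permutation p = 0.164) and Slc6a20a by 0.57 (exact permutation p = 0.0644). A p above the threshold does not show that these carriers followed the enterocyte genes exactly.

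**Figure D3:**
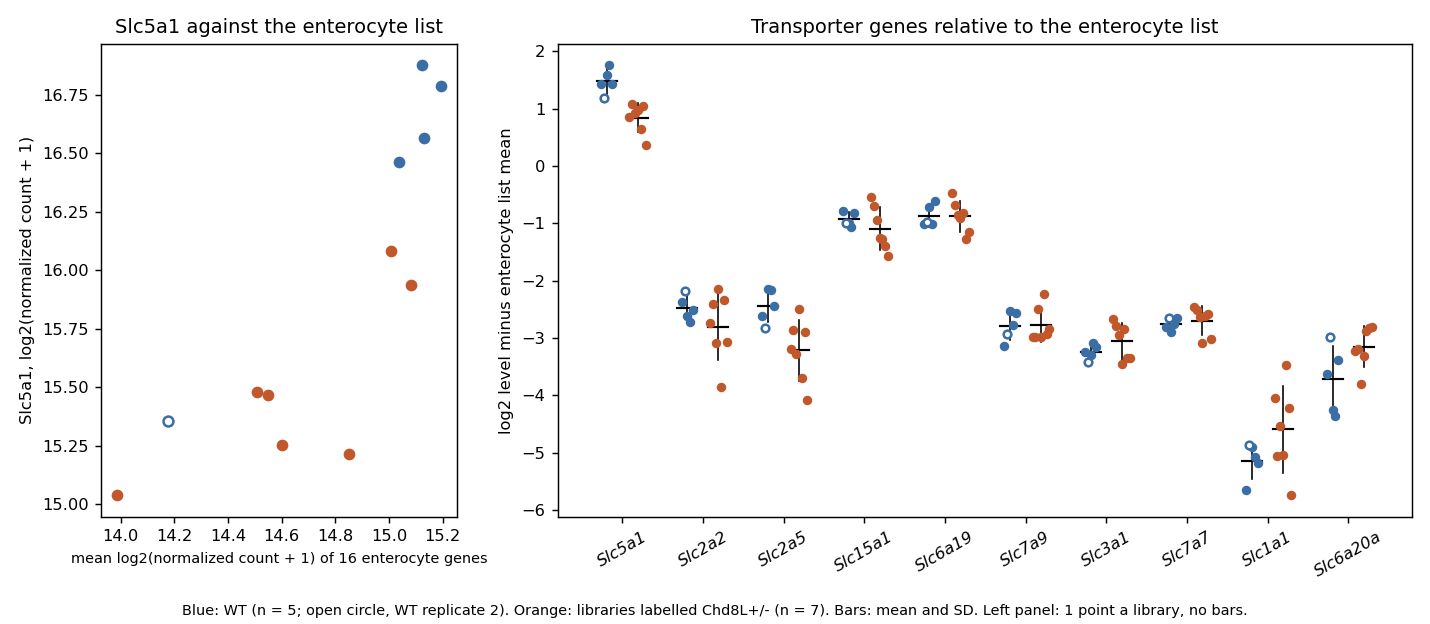
Left, the log2 level of Slc5a1 in each library against the mean log2 level of the 16 enterocyte genes; right, the log2 level of each carrier minus that mean in WT (blue, WT replicate 2 open) and in libraries labelled Chd8L+/- (orange), with the mean and SD. Slc5a1 is the carrier whose 2 groups do not overlap, at 1.18 to 1.75 in WT and 0.36 to 1.07 in the libraries labelled Chd8L+/-.

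Partner genes were compared as log2 ratios within each library, and 3 ratios are given, with p-values adjusted over 4. Slc7a9 over its heavy subunit Slc3a1 averaged 0.45 ± 0.25 over the 5 WT libraries and 0.28 ± 0.37 over the 7 labelled Chd8L+/- (SD here and for the ratios that follow). Slc7a7 over its heavy subunit Slc3a2 was -0.18 ± 0.21 and -0.24 ± 0.20. Slc2a5 over Slc5a1 was -3.91 ± 0.12 and -4.06 ± 0.32. The differences of -0.17, -0.06 and -0.14 had adjusted p of 0.529, 0.602 and 0.529 in two-sided exact permutation tests. None of the 3 ratios was shown to differ between genotypes.

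Further carriers of both nutrient classes were compared next. Of 6 further sugar carriers tested, 5 had a log2 fold change below 0, the median was -0.45, and none passed the adjusted threshold over all 12 libraries (limma). Of the 6, 4 were lower with unadjusted p at or under 0.05, against 11.8% of all genes. The smallest p on the lower side was that of Slc2a1, the facilitative glucose carrier GLUT1, with 350.1 to 1543 normalized counts in WT and 275.4 to 554 in the libraries labelled Chd8L+/- (log2 fold change -0.83, SE 0.32, limma adjusted p = 0.154). The other 3, named after their values were seen, were Slc2a7 at -0.46, Slc5a4a at -0.44 and Slc5a9 at -0.62. The gene above 0 was Slc5a4b, a paralog of Slc5a4a, at 0.26. Sharing of reads between these paralogs was not tested. Without WT replicate 2, Slc2a1, Slc2a7 and Slc5a9 passed the adjusted threshold as lower (limma adjusted p of 0.0182, 0.0468 and 0.00546), in a fit that called 13.6% of all genes lower.

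Of 14 further amino acid carriers, 13 had a log2 fold change above 0 and the median was 0.36. None passed the adjusted threshold over all 12 libraries, and 2 were higher with unadjusted p at or under 0.05, which 12.5% of all genes also were. Slc7a1, the cationic amino acid carrier CAT1, had 272.2 to 1343 normalized counts in WT and 672.2 to 1178 in the libraries labelled Chd8L+/- (log2 fold change 0.92, SE 0.32, limma adjusted p = 0.128). Slc38a1, a carrier of glutamine, had 387.5 to 1011 in WT and 697 to 1086 in the libraries labelled Chd8L+/- (log2 fold change 0.54, SE 0.20, limma adjusted p = 0.139). Both passed as higher without WT replicate 2 (limma adjusted p of 0.00295 and 0.00937). That fit called 1789 of 12807 genes higher, and 27.6% of all genes in either direction. The gene below 0 was Slc36a1, a proton-coupled carrier of small neutral amino acids, at -0.40. Slc7a1 and Slc38a1 are also known to serve dividing cells, and the summed counts of the crypt and cycling-cell list are given with the other markers.

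All 8 partners and driving pumps had a log2 fold change below 0, with a median of -0.45, and none had an unadjusted p at or under 0.05. The smallest p was that of Atp1b1, the beta subunit of the sodium pump, at -0.44 (SE 0.25, limma adjusted p = 0.280). Of 6 genes of fructose and glucose handling, Khk, the ketohexokinase that phosphorylates fructose, and Tkfc, which phosphorylates the glyceraldehyde made from it, were lower at unadjusted p of 0.0111 and 0.0241, as 11.8% of all genes were at 0.05 or less, with log2 fold changes of -0.47 and -0.52. Khk had 5170 to 8371 normalized counts in WT and 4051 to 7074 in the libraries labelled Chd8L+/-, 5 of which lay below all of WT. Both passed the adjusted threshold without WT replicate 2 (limma adjusted p of 0.0151 and 0.019), when 13.6% of all genes were called lower. G6pc, the glucose-6-phosphatase, had a log2 fold change of 0.91 (SE 0.32, limma adjusted p = 0.134), and 6 of 7 libraries labelled Chd8L+/- lay above all of WT.

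Of 8 transcription factors of the intestinal epithelium, none passed the adjusted threshold, and 6 had log2 fold changes between -0.15 and 0.04. The others lay outside that range and their values are not reported here. Among the 6 were Hnf4a at -0.06 and Cdx2 at 0.04, and the lowest was Cdx1 at -0.15 (limma adjusted p = 0.611).

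The 5 genes of the whole table named here followed the carriers most closely from library to library. After the genotype means were removed, their Pearson r with the mean of the 10 standardized carriers, over 12 libraries, was 0.971 for Dnajb9, 0.966 for Ptprr, 0.965 for Slc6a8, 0.964 for Epha1 and 0.964 for Slc9a3r1. Slc6a8 carries creatine, and Slc9a3r1 is the brush border scaffold NHERF1, which was also on the list of partners. The carriers themselves did not move as 1 block: on the same measure Slc6a19, Slc3a1, Slc15a1 and Slc7a7 lay between 0.952 and 0.972, Slc5a1 at 0.909, Slc7a9 at 0.775, Slc2a5 at 0.757, Slc1a1 at 0.544, Slc2a2 at 0.540 and Slc6a20a at 0.369. Each carrier is part of the mean it was set against. These values are descriptions over libraries that share their depth and their enterocyte content.

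Markers of other cells and of gut segments differed among the libraries. The 10 crypt stem and cycling-cell genes all had log2 fold changes above 0, with a median of 0.78. Their summed count was 13303 to 24378 in the libraries labelled Chd8L+/- and 5913 to 21523 in WT, WT replicate 2 being the highest of WT. All 7 tuft cell genes had log2 fold changes below 0, with a median of -1.78 and summed counts of 1189 to 8309 in the libraries labelled Chd8L+/- and 2045 to 19307 in WT. Il25 among their markers was at 0 in at least 1 library. All 9 stromal and endothelial genes tested had log2 fold changes above 0, at summed counts of 231.2 to 2825 against 151.7 to 699, with Col1a2, Col3a1 and Pdgfra at 0 in at least 1 library. The part of these cells in the carriers' values was not tested.

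Segment markers had wider ranges in the 7 libraries labelled Chd8L+/- than in the 5 of WT, and a range tends to widen with more libraries. The 7 genes of the proximal small intestine summed to 48584 to 264490.0 normalized counts there and 108048 to 188127 in WT, the 5 genes of the distal small intestine to 764.8 to 28595 and 3737 to 21349, and the 7 colon genes to 2756 to 24847 and 2256 to 7369.9. The highest colon sum was that of Chd8L+/- replicate 4 alone, and the next highest of that group was 8519. Of the 3 segment lists, 4 of 7 proximal, 3 of 5 distal and 1 of 6 colon genes tested had a log2 fold change below 0. The distal genes ran from -1.24 to 0.83 and the colon genes from -0.28 to 0.70. In each of these 2 lists 1 gene was higher at an unadjusted p of 0.05 or less (limma), as 12.5% of all genes were. DESeq2 called 1 distal gene higher, when it called 230 genes higher in all. A proximal gene, named after its values were seen, differed as much as the sugar carriers: Fabp1, the liver-type fatty acid binding protein, had a log2 fold change of -1.08 (limma adjusted p = 0.121), with all 7 libraries labelled Chd8L+/- below the WT median and 4 below all of WT. It was the lowest of the 7 proximal genes, whose median was -0.32 and highest 0.40. No other of them was lower at an unadjusted p of 0.05 or less (limma). With DESeq2 Fabp1 passed as lower (adjusted p = 0.0278), when 4.58% of all genes did. Without WT replicate 2 it also passed (limma adjusted p = 0.0119), when 13.6% were called lower. Hoxd13 and Hoxa13 of the colon list were at 0 in at least 1 library. Carrier levels differ between segments of the normal gut, and the part of the segments in these differences was not tested. Goblet cell genes summed to 74255 to 136961 normalized counts in the libraries labelled Chd8L+/- and 77754 to 199116 in WT. Paneth genes summed to 30378 to 67282 and 37281 to 65430.3, and enteroendocrine genes to 4124 to 7129.7 and 3302 to 7634. Immune genes summed to 1843 to 20250.5 and 3335 to 7695, and genes of general epithelial identity to 114297 to 169125 and 114905 to 188990.0. All markers of the last list were above 0 in every library.

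**Figure D4:**
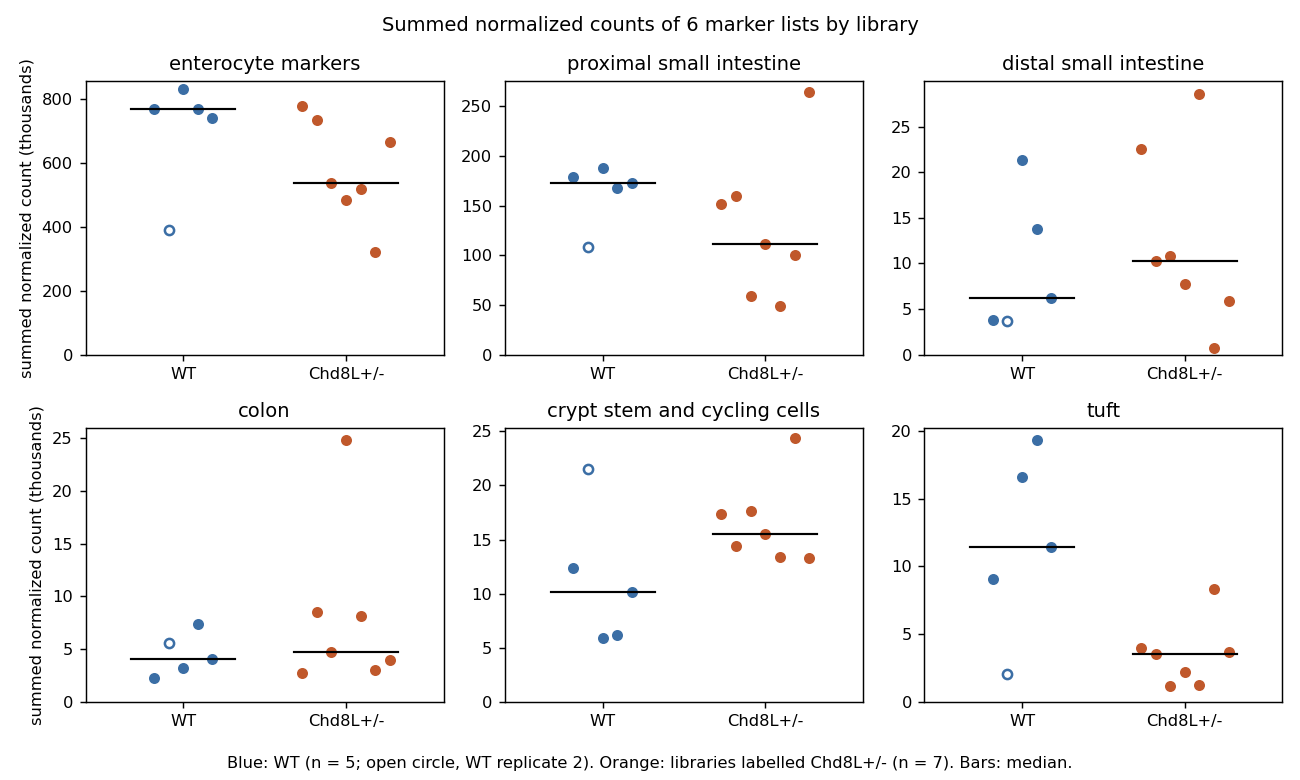
Summed normalized counts (plotted divided by 1000) of 6 marker lists in each library, WT in blue (WT replicate 2 open) and libraries labelled Chd8L+/- in orange, with the median as a bar. Crypt and cycling-cell genes lie at 13303 or more in all 7 libraries labelled Chd8L+/- and at 12352 or less in the 4 filled WT points, with WT replicate 2 at 21523.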

How the data were processed

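The deposited values are a signal: gene counts that the authors divided by a size factor for each library with DESeq2, after mapping to mm10 with Tophat2. The counting tool, annotation and strand setting are not given in the sources used here. Whole reads were recovered from the steps of the values (100% of values within 0.01 of a whole number). Of the rows, 21 have date-like names in place of symbols and 4 share a name, and none is a carrier. The carriers and gene lists were chosen with earlier results of these data known. Most members of other lists were named because they passed a test or had the smallest p in a direction of their list. Some, among them Cdx2, were named without meeting this rule and do not stand for their list. limma 3.58.1 (lmFit and eBayes with trend, R 4.3.3) tested 12808 genes, those with an average value of 10 or more, on the log2(value + 1) scale, with Benjamini-Hochberg adjustment and a threshold of 0.05; fold changes on this scale understate those of low genes. The recovered reads were put through edgeR 4.0.16 and DESeq2 1.42.0 as alternatives; other filters, pseudocounts and scalings, block terms and the omission of each library were tried too. Single values were compared by two-sided exact permutation tests (Python 3.11.15). Epithelial cells came from 5 WT and 7 Chd8L+/- mice by the study's methods. Gene spans and exon lengths are from the GENCODE annotation of GRCm38, promoters from RefSeq. The fits were tested on simulated data in which the spread between libraries (dispersion) was capped at 0.05. The simulation therefore does not show how the fits behave at a larger spread. DESeq2 made somewhat more false calls in it than its target. Symbols not in the table (Slc5a10, Muc2, Defa24, Defa17 and 5 pancreatic acinar genes) are not analysed here. Some values of the partner and transcription factor lists are not reported here.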

Additional observations from a re-analysis of the deposited data

Results flagged for a closer look

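WT replicate 2 lay far from the other 4 WT libraries in 4 of the 10 carriers, by the gap to its nearest neighbour over the range of the group (Dixon's ratio). On the scale of log2(normalized count + 1), Slc5a1 was 15.4 in it and 16.5 to 16.9 in the other WT libraries. Slc15a1 was 13.2 against 14.1 to 14.4. Slc3a1 was 10.8 against 11.88 to 12.04. Slc7a7 was 11.5 against 12.3 to 12.4. Over 48 groups examined, chance gives about 2.4 such values, and 4 were found, all low and all in this library. The groups reuse the same carriers and libraries, and these 4 carriers had r of 0.909 to 0.963 with the carriers' mean. The 4 values are therefore not separate events, and their number was not tested against 2.4. No carrier's level relative to the enterocyte genes, and no partner ratio, stood apart in any library by the same ratio.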

How the results depend on the processing

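Of 543 values recomputed under 25 alternatives, 481 kept their direction and side of the threshold. Leaving out 1 library at a time, the carriers called ranged from 0 to 2, all genes called from 0 to 3534, and the other nutrient carriers called from 0 to 5, with the highest of each without WT replicate 2. Leaving out any other single library called at most 8 genes. WT replicate 2 is the WT library that lay among the Chd8L+/- libraries, so its omission favours a difference by construction. The log2 fold change of Slc5a1 was -1.18 and of Slc2a5 -1.34 without WT replicate 2. DESeq2 called 2 carriers, 1 other nutrient carrier and 805 genes (575 lower, 230 higher). edgeR called 5 genes and a block for the letter of the library name 451 genes. Alternatives chosen after the data were seen left out WT replicate 2 as well: DESeq2 then called 2 carriers, 6 other nutrient carriers and 4068 genes, edgeR 2, 4 and 3365, and the letter block 3 (Slc2a2 too, at -0.95), 8 and 3316. Scaling to equal total reads, also chosen after, called 0 genes and moved the median of all genes to 0.13, with Slc3a1 at 0.019 and the carriers' median at -0.16. Slc5a1 and Slc2a5 stayed below 0 in every alternative, at -1.20 to -0.72 and -1.37 to -0.83. Under quantile normalization Slc6a19 was 0.014, Slc3a1 0.069 and Slc7a7 0.0030. Leaving out 1 library at a time gave Slc3a1 -0.33 to 0.064, the highest without Chd8L+/- replicate 6. The cause of these changes was not tested.

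Relative to the enterocyte genes, Slc5a1 lay between -0.71 and -0.56 and Slc2a5 between -0.90 and -0.64 in all 17 alternatives. Their exact permutation p ran from 0.00126 to 0.00884 and from 0.00649 to 0.0394 in the 15 of these that gave one; the fits with a block gave none. Leaving out 1 library at a time gave Slc6a19 -0.079 to 0.055 and Slc7a9 -0.083 to 0.073. Slc6a19 was 0.019 with the letter block. Against Vil1 and the epithelial identity list, Slc7a9 was -0.066 and Slc7a7 -0.022. Slc1a1 reached 0.74 without Chd8L+/- replicate 7, and Slc6a20a 0.76 without WT replicate 2 and 0.68 without Chd8L+/- replicate 3. The log2 ratio of Slc7a7 over Slc3a2 ranged from -0.14 to 0.0016 when 1 library was left out.

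Same-numbered libraries of the genotypes did not vary together (r of 0.189, -0.344, -0.129, -0.171 and -0.228 for pairs 1 to 5, and 1 of 5 correlated best with its own number). With a replicate block over these pairs, 0 genes were called (2327 at an unadjusted p of 0.05 or less), Slc3a1 was at 0.12, and Slc6a19 relative to the enterocyte genes at 0.12. The lowest value of any carrier in any library was 550.2 normalized counts (Slc1a1), so none was near the minimum of 10.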
